A study of Mus musculus with 147 samples.

Results

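The genes described here encode the subunits of oxidative phosphorylation, the 5 enzyme complexes of the inner mitochondrial membrane that pass electrons to oxygen and make ATP. They were chosen by a rule on gene names that uses no measured values, although earlier results of these data were known when it was set. The rule took protein-coding genes of both count tables whose symbol starts with Nduf, Uqcr, Cox4 to Cox8 or Atp5, the genes Sdha to Sdhd, and the 13 protein genes of the mitochondrial genome. Of the 50686 gene identifiers counted, the rule gave 93 nuclear and 13 mitochondrial genes. By complex, the nuclear genes fell into 36 of complex I, 8 assembly factors of complex I that share the Nduf prefix, 4 of complex II, 8 of complex III, 20 of complex IV and 17 of complex V, and the mitochondrial genes into 7, 1, 3 and 2 of complexes I, III, IV and V.

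Complex I oxidises NADH, complex II oxidises succinate, complex III passes electrons on to cytochrome c, complex IV reduces oxygen, and complex V (ATP synthase) uses the resulting proton gradient to make ATP. Complex II is built from nuclear genes only, whereas the other complexes combine nuclear subunits with subunits that are transcribed and translated inside the mitochondrion. Macrophages change their balance of oxidative phosphorylation and glycolysis with tissue and activation, which makes the 2 sets of transcripts of interest in populations from different organs and under different feeding.

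Transcript counts were available for 147 libraries of sorted mouse cells from 2 experiments. The first, in 4 cohorts, compared a 12 h fast with the same fast followed by 2 h of renewed feeding, and each library began with 400 cells. Its fasted and refed groups held 8 and 9 libraries of adipose tissue macrophages, 8 and 9 of colonic macrophages, 8 and 9 of microglia (the macrophages of the brain), 8 and 9 of monocytes, 8 and 8 of peritoneal macrophages, 6 and 7 of islet macrophages (from the pancreatic islets), and 6 and 7 of Kupffer cells (the macrophages of the liver). In the second, in 8 cohorts, mice ate normal diet or a high-fat diet for 8 weeks, or had the high-fat diet plus streptozotocin (STZ, a toxin of the insulin-producing beta cells) at week 4, after which the islets were ablated and glucose was high. Normal diet, high-fat diet and high-fat diet with STZ held 4, 4 and 3 libraries of islet macrophages (400 cells each), 4, 4 and 4 of microglia (5000 cells each) and 5, 4 and 5 of peritoneal macrophages (100000 cells each). The labels give no strain, sex or age and name no transgene. No group of the first experiment was fed freely throughout, so fasted and refed mice share the 12 h fast.

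Depth ran from 7915242 to 27315750 counts per library in the fasting experiment and from 11349232 to 34466388 counts in the diet experiment. Each marker list of 8 genes separated its own population from all others in the fasting experiment (in 17 of 17 libraries of microglia, 17 of 17 of adipose macrophages, 17 of 17 of monocytes, 16 of 16 of peritoneal macrophages, 13 of 13 of Kupffer cells and 13 of 13 of islet macrophages), except for the colonic list, whose sum reached 1854 to 6241 CPM (counts scaled to a common library size) in colonic libraries and 15535 CPM elsewhere. Colonic libraries also held RNA of other cells: the 12 markers of pancreatic acinar cells summed to 212371 and 194454 CPM in fasted replicates 3 and 5, and the 8 markers of B and plasma cells to 102709 and 99767 CPM in refed replicates 2 and 1. In sorted bulk samples, fewer cells of a type and less RNA per cell cannot be told apart, and all levels below are shares of a library.

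Of the 13 mitochondrial genes, 7 carried nearly all mitochondrial counts. mt-Co1 (the catalytic subunit of complex IV, chrM:5328-6872) had the most, 8659318 counts over all 147 libraries, followed by mt-Cytb (the cytochrome b of complex III, 5391156) and mt-Nd1 (a membrane subunit of complex I, 4998114). mt-Nd5, mt-Nd4, mt-Nd2 and mt-Nd6, also of complex I, had 2315547, 1418002, 745032 and 246332. The other genes were nearly or wholly uncounted: mt-Co2, mt-Atp8 and mt-Nd4l had 0 counts in every library, and mt-Co3, mt-Nd3 and mt-Atp6 had 12, 14 and 35 counts in all.

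The uncounted genes, with the exception of mt-Atp8, have a nearly identical nuclear copy of nearly the whole gene. The share of a gene's 50-base words that also occur in another annotated transcript was 100% for mt-Co2, 99.86% for mt-Co3, 99.53% for mt-Atp6, 98.79% for mt-Nd4l and 97.99% for mt-Nd3. It was 62.23% for mt-Nd4, 51.14% for mt-Co1, 8.19% for mt-Nd2, 7.6% for mt-Nd5 and 0 for mt-Nd1, mt-Nd6, mt-Cytb and mt-Atp8. A block of 6 copies on chromosome 1 (chr1:24611535-24615565, GRCm38, a span of 4031 bases) differs from the mitochondrial genes at 1 of 3657 aligned bases, which is T3C in the copy of mt-Nd3. The copies had fewer counts than the 7 counted genes: Gm28438, the copy of mt-Nd3, had 17114 counts in all libraries (at most 371 in one), Gm10222, the copy of mt-Nd4l, had 1754, and Gm10925, Gm28661, Gm28437 and Gm28439 had 203, 127, 249 and 51. Gm28438, Gm10222, Gm10925 (the copy of mt-Atp6), Gm28661 (of mt-Co2) and Gm28437 (of mt-Co3) thus had more counts than the mitochondrial genes they copy. Gm28439, the copy of mt-Nd4, had fewer. mt-Atp8 lies in a gap of the block without an annotated copy. How reads that match 2 places were counted is not given in the sources used here, and its part in these zeros was not tested. The sequences below show how alike the genes and their copies are. The first 60 bases of mt-Co2 and mt-Co3 are the same as in their copies, and the copy of mt-Nd4 stops within the gene. For mt-Co1, Gm13340 is 1 of several genes with shared words, and it differs from mt-Co1 at single bases. Capitals mark the bases of mt-Co1 that differ from the copy Gm13340 (C54A, A60G and G87A, counted from 1 at the gene's 5′ end, with the mitochondrial base first) and, in mt-Nd4, the bases beyond position 876, where the copy Gm28439 ends. All are from the GENCODE transcripts of GRCm38.
mt-Co2 bases 1 to 60, chrM:7013-7072, plus strand: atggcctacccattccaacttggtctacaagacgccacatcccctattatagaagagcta
Gm28661 bases 1 to 60, chr1:24615506-24615565, minus strand: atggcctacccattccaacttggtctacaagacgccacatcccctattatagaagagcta
mt-Co3 bases 1 to 60, chrM:8607-8666, plus strand: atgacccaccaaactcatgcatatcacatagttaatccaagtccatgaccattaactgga
Gm28437 bases 1 to 60, chr1:24613912-24613971, minus strand: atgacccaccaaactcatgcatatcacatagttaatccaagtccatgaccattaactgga
mt-Co1 bases 41 to 100, chrM:5368-5427, plus strand: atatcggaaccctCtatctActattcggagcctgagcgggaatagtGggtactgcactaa
Gm13340 bases 41 to 100, chr2:22589548-22589607, minus strand: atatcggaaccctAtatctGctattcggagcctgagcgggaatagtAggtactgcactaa
mt-Nd4 bases 847 to 906, chrM:11013-11072, plus strand: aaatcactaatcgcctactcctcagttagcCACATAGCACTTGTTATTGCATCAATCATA

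Over its full length, mt-Co1 differs from Gm13340 at 37 of 1545 bases (97.6% identity), mt-Nd2 from Gm13339 at 17 of 510 aligned bases and mt-Nd5 from Gm4076 at 93 of 965. Identical words of mt-Co1 occur in 3 other annotated genes. Of these, Gm29216, an unprocessed pseudogene, shares the most, 28.74% of the words of mt-Co1. The counts of Gm29216 are not given here. Gm13340 had 2149 counts in all libraries. The mitochondrial results below therefore rest on 7 genes: 5 of complex I, mt-Cytb and mt-Co1. The mitochondrial genes of complex V had too few counts to be tested. mt-Nd5 and mt-Nd6 lie on opposite strands and their annotated exons overlap by 14 bases. The strand setting of the counting is not given in the sources used here, so reads in the overlap, and any antisense reads, cannot be told apart. In all, 40 of the genes (30 nuclear and 10 mitochondrial) overlap an exon of another gene.

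The nuclear genes together took a larger share of the library in monocytes and peritoneal macrophages than in the other 5 populations, and microglia had the lowest median. In fasted monocytes the nuclear sum was 0.832% of counts at the lowest, 0.954% at the median and 1.03% at the highest of 8 libraries, and in fasted peritoneal macrophages 0.822%, 0.887% and 0.996%. The medians of fasted Kupffer cells, adipose, colonic and islet macrophages were 0.615%, 0.600%, 0.655% and 0.603%, and the highest library among them was a Kupffer library at 0.839%. Fasted microglia ran from 0.442% through 0.568% to 0.633%. Groups overlapped among these last 5 populations, whereas only that Kupffer library reached the range of monocytes and peritoneal macrophages.

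The mitochondrial genes were ordered differently. Their sum was 0.496% at the lowest, 0.578% at the median and 0.859% at the highest of the fasted microglia, and the medians of the other 6 populations lay between 0.868% (monocytes) and 1.04% (peritoneal macrophages). Adipose macrophages (0.513% to 1.30%) and Kupffer cells (0.868% to 1.73%) had the widest ranges. The ratio of the mitochondrial to the nuclear sum had a median of 0.908 in fasted monocytes (0.734 to 1.36), 1.09 in microglia (0.880 to 1.36), 1.19 in peritoneal macrophages (0.950 to 1.40), 1.47 in colonic (1.32 to 2.32), 1.59 in islet (1.13 to 1.88), 1.65 in Kupffer cells (1.39 to 3.00) and 1.71 in adipose macrophages (0.844 to 2.37). The monocytes thus combined the highest nuclear share with the lowest median ratio, while microglia were low in both sums. These sums are given as ranges, without a test.

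**Figure D1:**
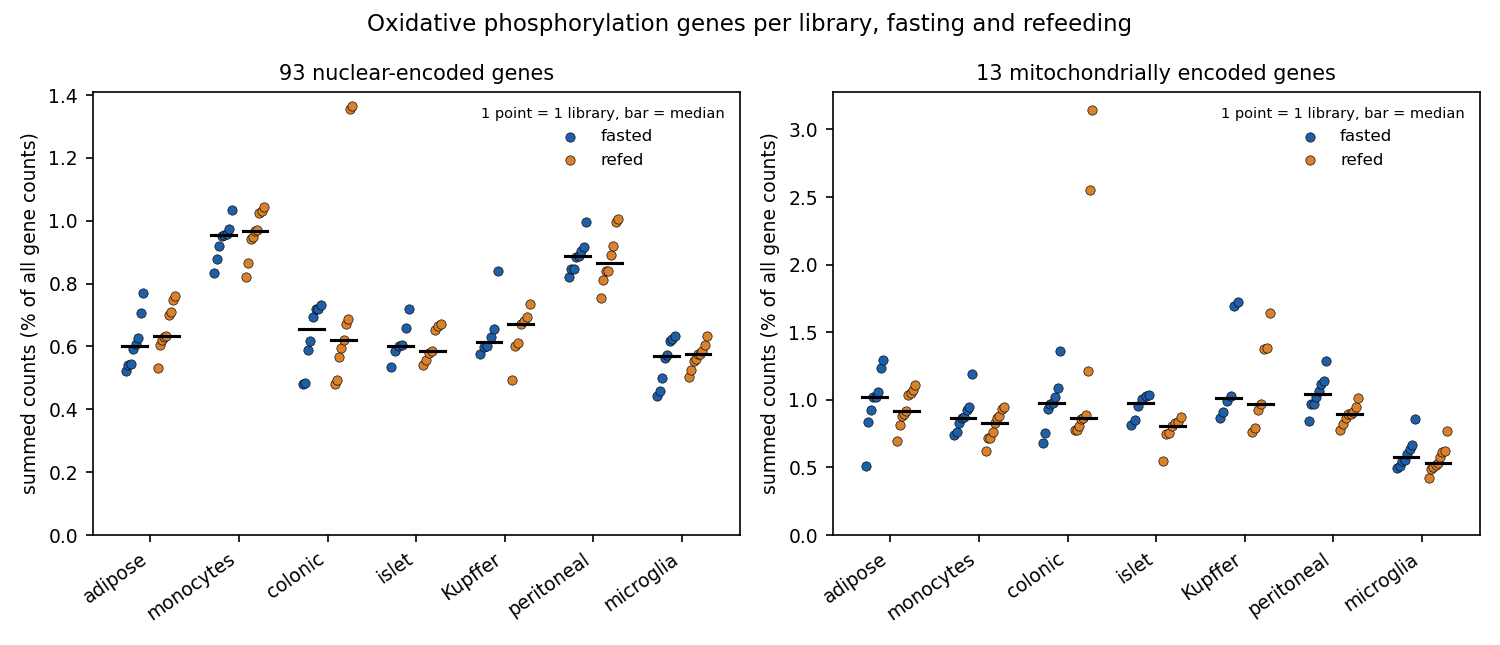
Summed counts of the 93 nuclear (left) and 13 mitochondrial genes (right) in % of all gene counts of a library, for fasted and refed libraries of 7 populations; a point is 1 library and a bar the group median. Fasted monocytes (0.832% to 1.03%) and peritoneal macrophages (0.822% to 0.996%) stand highest on the left, fasted microglia lowest on the right (median 0.578%), and the 2 points at the top of the colonic column are refed replicates 7 and 8.

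Gene by gene, populations were compared in fasted mice with edgeR, in a fit of all 52 fasted libraries with cohort as a term; each population was set against the mean of the other 6, so the comparisons share libraries. Libraries of different populations that carry the same number may come from 1 animal, which the labels do not state, and the fit has no term for it. With the replicate number as a block in place of cohort, 51 members passed in microglia, 45 in peritoneal macrophages, 27 in monocytes, 6 in colonic macrophages, 5 in Kupffer cells, 4 in adipose and 2 in islet macrophages. The fit tested 16114 genes and 95 members, 88 nuclear and 7 mitochondrial. The other 11 were the mitochondrial genes without counts and Cox4i2, Cox7b2, Cox8b, Cox8c and Ndufa4l2. A test over all populations passed an adjusted p of 0.05 for 63 of the 95 members, against 49.4% of all genes tested. By complex these were 14 of 15 nuclear genes of complex IV, 14 of 17 of complex V, 6 of 8 of complex III, 20 of 36 of complex I, 2 of 4 of complex II, 0 of 8 assembly factors and 7 of 7 mitochondrial genes.

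Microglia had lower levels of 50 of the 95 members and higher levels of 2 than the mean of the other populations, where 27.7% of all genes differed and 12.3% were lower. The median log2 difference was -0.54 over the nuclear and -0.83 over the mitochondrial members, beside 0.17 over all genes tested. The lower members were 12 of 15 of complex IV (median of the 15, -1.12), 6 of 8 of complex III (-1.01), 12 of 17 of complex V (-0.54), 12 of 36 of complex I (-0.43), 1 of 4 of complex II (-0.37) and 7 of 7 mitochondrial genes. None of the 8 assembly factors passed, and their median was 0.53.

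Uqcrh, the hinge protein of complex III (chr4:116066965-116075071, minus strand), had the smallest p of these. Its level was 22.03 CPM at the lowest, 36.2 at the median and 66 at the highest of 8 fasted microglia libraries. In the same order it was 51.9, 90.2 and 107.7 CPM in Kupffer cells, 70.0, 100.3 and 120.1 in adipose, 68.2, 122.6 and 158.3 in colonic and 68.9, 113.9 and 136.1 in islet macrophages, 119.5, 157.2 and 187.1 in monocytes and 125.1, 143.5 and 157.5 in peritoneal macrophages. Microglia overlapped only Kupffer cells. The log2 difference was -1.68 ± 0.16 (SE; edgeR, adjusted p = 3.7e-12).

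Ndufa1, an accessory subunit of complex I (chrX:37187588-37191163, minus strand), came next by size among the nuclear genes, with levels of 6.33, 24.5 and 39.5 CPM in microglia (lowest, median, highest) and a log2 difference of -1.57 ± 0.24 (edgeR, adjusted p = 8.3e-07). The complex III subunits Uqcr10, Uqcrfs1 (the Rieske iron-sulfur protein) and Uqcr11 were lower by -1.39 ± 0.24, -1.24 ± 0.33 and -1.14 ± 0.17 on the log2 scale. In complex IV the ubiquitous forms of nearly every nuclear subunit were lower, among them Cox7a2l (-1.36 ± 0.18), Cox6c (-1.29 ± 0.16), Cox5a (-1.29 ± 0.21), Cox8a (-1.12 ± 0.11), Cox4i1 (-1.11 ± 0.13) and Cox6b1 (-1.07 ± 0.13). In complex V the small subunits Atp5e (epsilon, -1.38 ± 0.19) and Atp5k (-1.20 ± 0.28) were lower, as were the catalytic beta subunit Atp5b (-0.50 ± 0.14, adjusted p = 0.0056 by edgeR) and the alpha subunit Atp5a1 (-0.48 ± 0.11, adjusted p = 0.001). Sdhd, a membrane anchor of complex II, was lower by -0.72 ± 0.25 (edgeR, adjusted p = 0.026).

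All 7 mitochondrial genes counted were lower in microglia. mt-Co1 was at 1186 CPM in the lowest, 1411 in the median and 2250 in the highest microglia library, against medians of 3327 in Kupffer cells, 3343 in monocytes, 3509 in peritoneal, 4080 in adipose, 4231 in colonic and 4374 in islet macrophages. Its log2 difference was -1.38 ± 0.15 (edgeR, adjusted p = 9.7e-11), with an adjusted p of 0.19 by limma with quality weights. Only adipose macrophages (lowest library 2118 CPM) overlapped microglia in mt-Co1. The others differed by -0.86 ± 0.12 for mt-Cytb, -0.85 ± 0.13 for mt-Nd4, -0.83 ± 0.15 for mt-Nd2, -0.70 ± 0.16 for mt-Nd5, -0.57 ± 0.14 for mt-Nd1 and -0.57 ± 0.16 for mt-Nd6. Within the mitochondrial genome, mt-Nd1 therefore fell short of the other populations by less than mt-Co1: its microglia levels of 1076, 1408 and 1724 CPM overlapped those of monocytes (978.6, 1297 and 1790 CPM). The difference between the 2 genes was not tested.

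The 2 members higher in microglia were Ndufa9, a subunit of complex I (0.46 ± 0.17, edgeR adjusted p = 0.037, 63.3, 84.2 and 111.8 CPM), and Cox6a2. Cox6a2 is the form of a complex IV subunit known from heart and skeletal muscle (chr7:128205435-128206387, minus strand). It was counted in 7 of 8 microglia libraries, with a median of 6.17 and a maximum of 20.6 CPM, while it was 0 in all 6 islet and all 8 peritoneal libraries and at most 3.44 CPM in any library of the other populations. Because whole groups are at 0, its fitted fold change depends on the fit's prior count and is not given as a size (edgeR, adjusted p = 2.1e-05). Its exons overlap Itgad, a gene on the other strand, so its reads may belong to either. The 11 markers of striated muscle summed to at most 2.35 CPM in fasted microglia and reached 22.8 CPM in colonic libraries.

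The low level of these genes in microglia ran together with short exon length and with ribosomal protein genes. Among 8672 protein-coding genes with a mean of at least 10 CPM, the median log2 difference of microglia was -0.88 for exon lengths under 1000 bases (153 genes), -0.27 for 1000 to 2000 bases (798 genes) and 0.23 above (7721 genes). These differences compare group mean CPM on unscaled library sizes, with 1 CPM added and no cohort term. They are not on the scale of the edgeR differences. The nuclear members stood at -0.76 (18 genes), -0.55 (31 genes) and -0.15 (29 genes) in the same bins, which were set after the values had been seen. In the bin under 1000 bases, members thus differed about as much as all genes, and in the other bins they lay below all genes. All genes here include the members. Exon length was taken per gene and not per transcript counted, so members with short transcripts may stand in the longer bins. Of 79 cytosolic ribosomal protein genes, 76 were lower in microglia (median -1.39), and their summed share had a median of 0.854% in fasted microglia and of 1.30% to 2.63% in the other populations. The 8 markers of neurons and glia summed to 27.4 to 724.9 CPM in fasted microglia and to 179.4 to 392.7 CPM in monocytes. The part of transcript length, of ribosomal protein genes and of other cells in the result was not tested.

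The promoters of nuclear members were read because many members moved together in these population comparisons. RefSeq (GRCm38.p6) windows from 250 bases before to 50 after the start matched 76 of the 93 nuclear members, 74 by symbol and 2 by synonym, and 4 motifs were searched on both strands. The NRF1 motif GCGCATGC was in 12 (15.8%) of them and in 2.8% of all 27025 windows of the table, the YY1 motif AAGATGGC in 10 (13.2%) and 2.88%, the ETS motif CCGGAAGT in 5 (6.58%) and 4.0%, and the ERR motif TCAAGGTCA in 2 (2.63%) and 0.407%. At least 1 of the first 3 was in 26 members (34.2%) and in 9.15% of all windows. By complex, the YY1 letters were in 7 of 32 complex I promoters (21.9%) and in 0 of 14 of complex IV. A match describes letters in a window and nothing more. The 4 sequences are the 150 bases before the start of the matched members with the smallest p in microglia that hold a motif there, each read 5′ to 3′ on the gene's strand, with the motif in capitals (ETS in Uqcrh, Uqcr11 and Atp5h, NRF1 in Ndufa6).
Uqcrh, chr4:116075071-116075220, minus strand: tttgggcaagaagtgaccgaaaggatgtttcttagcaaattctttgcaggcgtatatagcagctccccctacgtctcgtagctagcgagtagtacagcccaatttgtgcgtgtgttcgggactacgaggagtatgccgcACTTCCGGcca
Uqcr11, chr10:80406822-80406971, minus strand: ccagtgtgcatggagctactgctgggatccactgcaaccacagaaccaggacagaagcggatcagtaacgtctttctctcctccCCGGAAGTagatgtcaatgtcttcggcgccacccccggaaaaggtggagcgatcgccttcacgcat
Ndufa6, chr15:82354292-82354441, minus strand: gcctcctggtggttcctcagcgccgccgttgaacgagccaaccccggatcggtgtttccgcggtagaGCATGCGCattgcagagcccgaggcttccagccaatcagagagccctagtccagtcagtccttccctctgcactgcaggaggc
Atp5h, chr11:115419920-115420069, minus strand: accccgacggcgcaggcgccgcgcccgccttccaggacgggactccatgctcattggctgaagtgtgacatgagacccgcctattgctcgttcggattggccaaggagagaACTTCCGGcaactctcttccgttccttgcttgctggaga

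Peritoneal macrophages had higher levels of 44 of the 95 members and a lower level of 1, where 21% of all genes differed and 12.4% were higher. The median log2 difference was 0.56 over the nuclear and 0.25 over the mitochondrial members, beside 0.08 over all genes. The higher members were 16 of 36 of complex I, 11 of 15 of complex IV, 10 of 17 of complex V, 4 of 8 of complex III, 1 of 4 of complex II and 2 of 7 mitochondrial genes. Without the filter on low counts the number of members that passed was 11.

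Ndufa1 was again at the extreme, now at the top, with 110.3, 141.2 and 160.0 CPM (lowest, median and highest of 8 libraries) and a log2 difference of 1.48 ± 0.19 (edgeR, adjusted p = 1.8e-08). The next highest library of any population was a monocyte library at 105.5 CPM, so the groups did not overlap. Ndufa4, a subunit of complex IV despite its name, was at 134.2, 156.0 and 167.2 CPM in peritoneal macrophages, and its medians elsewhere ran from 48.5 CPM (adipose) to 95.1 CPM (colonic). It differed by 1.16 ± 0.15 (edgeR, adjusted p = 1.5e-08). Uqcrb of complex III (1.03 ± 0.16), Atp5mpl (1.03 ± 0.18) and Atp5j (0.99 ± 0.13) of complex V, Cox7a2 (0.86 ± 0.17) and Cox6a1 (0.82 ± 0.14) of complex IV and Sdhc of complex II (0.56 ± 0.19) were higher as well. The member below was Ndufs8, an iron-sulfur subunit of complex I (-0.49 ± 0.16, edgeR adjusted p = 0.026; 37.1, 63.5 and 79.6 CPM).

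Of the mitochondrial genes only the overlapping pair mt-Nd5 (1128, 1354 and 1488 CPM) and mt-Nd6 (107.02, 131.9 and 152.7 CPM) passed in peritoneal macrophages, by 0.61 ± 0.14 each (edgeR, adjusted p = 0.0011 and 0.00088). The log2 differences of the others were 0.25 for mt-Cytb (adjusted p = 0.11 by edgeR), 0.25 for mt-Nd1, 0.17 for mt-Nd4, 0.15 for mt-Co1 and 0.14 for mt-Nd2. Cytosolic ribosomal protein genes were higher here too, in 75 of 79, with a median of 0.75. Short genes were high in general, by the differences of unscaled CPM used for microglia. By exon length under 1000, 1000 to 2000 and above 2000 bases, the medians were 0.58, 0.47 and 0.32 for nuclear members and 0.19, 0.10 and -0.17 for all protein-coding genes. The part of both in the result was not tested.

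Monocytes had higher levels of 24 members, all nuclear, and lower levels of 5, of which 4 were mitochondrial. Of all genes 19% differed and 10.4% were higher. The nuclear median was 0.31 and the mitochondrial median -0.40, beside -0.03 over all genes. Among the higher genes were Atp5c1, the gamma subunit that turns within ATP synthase (0.70 ± 0.11, edgeR adjusted p = 2.4e-06; 258.2, 330.4 and 449.7 CPM), Uqcrh (0.73 ± 0.13), Uqcrfs1 (0.79 ± 0.28), Ndufa3 (0.73 ± 0.20), Atp5h (0.67 ± 0.13), Cox7a2l (0.67 ± 0.15) and Cox4i1 (0.53 ± 0.11). By complex they were 11 of 36 of complex I, 5 of 15 of complex IV, 4 of 17 of complex V, 3 of 8 of complex III, 0 of 4 of complex II, and 1 of 8 assembly factors, Ndufaf7 (1.40 ± 0.47).

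The mitochondrial genes lower in monocytes were mt-Nd1 (-0.67 ± 0.14, edgeR adjusted p = 0.00041), mt-Cytb (-0.46 ± 0.12), mt-Nd4 (-0.40 ± 0.13) and mt-Nd2 (-0.40 ± 0.14). mt-Co1, mt-Nd6 and mt-Nd5 gave -0.08, 0.06 and 0.05, and none of these passed. mt-Cytb ran from 1208 through 1522 to 1936 CPM in monocytes and had medians of 2128 in Kupffer cells and 2725 in colonic macrophages. The nuclear gene lower in monocytes was Atp5s, a factor associated with ATP synthase, which was at 0 in 5 of 8 monocyte libraries. By exon length under 1000, 1000 to 2000 and above 2000 bases, the medians in monocytes, again of unscaled CPM, were 0.43, 0.64 and 0.42 for nuclear members and 0.35, 0.22 and 0.04 for all protein-coding genes. The part of length in the result was not tested. Without the filter on low counts 8 members passed in monocytes, and with limma and quality weights 44.

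The other 4 populations stood out in few members. In Kupffer cells 6 passed, against 12.8% of all genes: 4 mitochondrial genes were higher, mt-Nd2 by 0.72 ± 0.15, mt-Nd5 by 0.56 ± 0.17, mt-Cytb by 0.46 ± 0.13 and mt-Nd4 by 0.44 ± 0.14, Cox5a was higher by 1.02 ± 0.20, and Atp5c1 was lower by -0.42 ± 0.14. The mitochondrial median was 0.44 and the nuclear median -0.07. Cox5a (chr9:57521274-57532426, plus strand), a subunit of complex IV, was at 65.8, 71.1 and 96.9 CPM in Kupffer cells and at 11.3, 16.2 and 42.9 CPM in microglia, and it shares exon bases with Gm26631 on the other strand. The 10 endothelial markers summed to 2088 to 4896 CPM in fasted Kupffer libraries and to at most 332.2 CPM in other fasted libraries. Their part in the result was not tested.

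In colonic macrophages 5 members were higher and 0 lower, against 18.2% of all genes: mt-Cytb (0.54 ± 0.11), mt-Nd4 (0.34 ± 0.12), Atp5e (0.52 ± 0.17), Cox8a (0.44 ± 0.10) and Cox7a1. Without fasted replicates 3 and 5, which carry the acinar RNA, 3 passed, and mt-Nd4 and Atp5e had adjusted p of 0.21 and 0.18 by edgeR. Cox7a1, a form of a complex IV subunit known from heart and muscle, was at 0 in 2 of 8 colonic libraries, 3.21 CPM at the median and 11.7 CPM at the highest, and in all 6 islet libraries it was at 0. Adipose macrophages passed in 4 (11.8% of all genes): mt-Nd2 was higher (0.40 ± 0.13), and Ndufa4 (-0.58 ± 0.17), Atp5f1 (-0.58 ± 0.18) and the weakly counted Atp5l were lower. Islet macrophages passed in 5 (13.9%): Cox7a2l, which takes part in joining complexes III and IV, was higher by 0.77 ± 0.17 (170.1, 206.5 and 267.7 CPM), Ndufc2 by 0.64 ± 0.20 and Cox4i1 by 0.41 ± 0.12, and Ndufs7 (-0.81 ± 0.20; 30.2, 40.8 and 72.9 CPM) and Cox7a1 were lower. Beta-cell markers, 8 genes, summed to 898.9 to 2977 CPM in these fasted islet libraries, and their part was not tested. With the replicate number as a block, Ndufs7 (adjusted p of 0.11 by edgeR), Cox4i1 (0.17), Ndufc2 (0.26) and Cox7a1 (0.19) did not pass in islet macrophages. Without the filter on low counts, all 4 calls in adipose macrophages were lost (Ndufa4 with an adjusted p of 0.44 by edgeR), as were those of Cox5a (0.14), mt-Nd4 (0.19) and Atp5c1 (0.43) in Kupffer cells, Cox8a (0.37), Atp5e (0.46) and mt-Nd4 (0.23) in colonic macrophages, and Ndufs7 (0.29), Cox4i1 (0.28) and Ndufc2 (0.55) in islet macrophages. In the same run mt-Co1 passed in all 4 populations: adipose (0.31, adjusted p of 0.026 by edgeR), colonic (0.30, 0.020) and islet macrophages (0.39, 0.0072) and Kupffer cells (0.35, 0.019). Cox4i2 in Kupffer cells and Ndufa4l2 in colonic macrophages, not tested with the filter, passed as well.

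**Figure D2:**
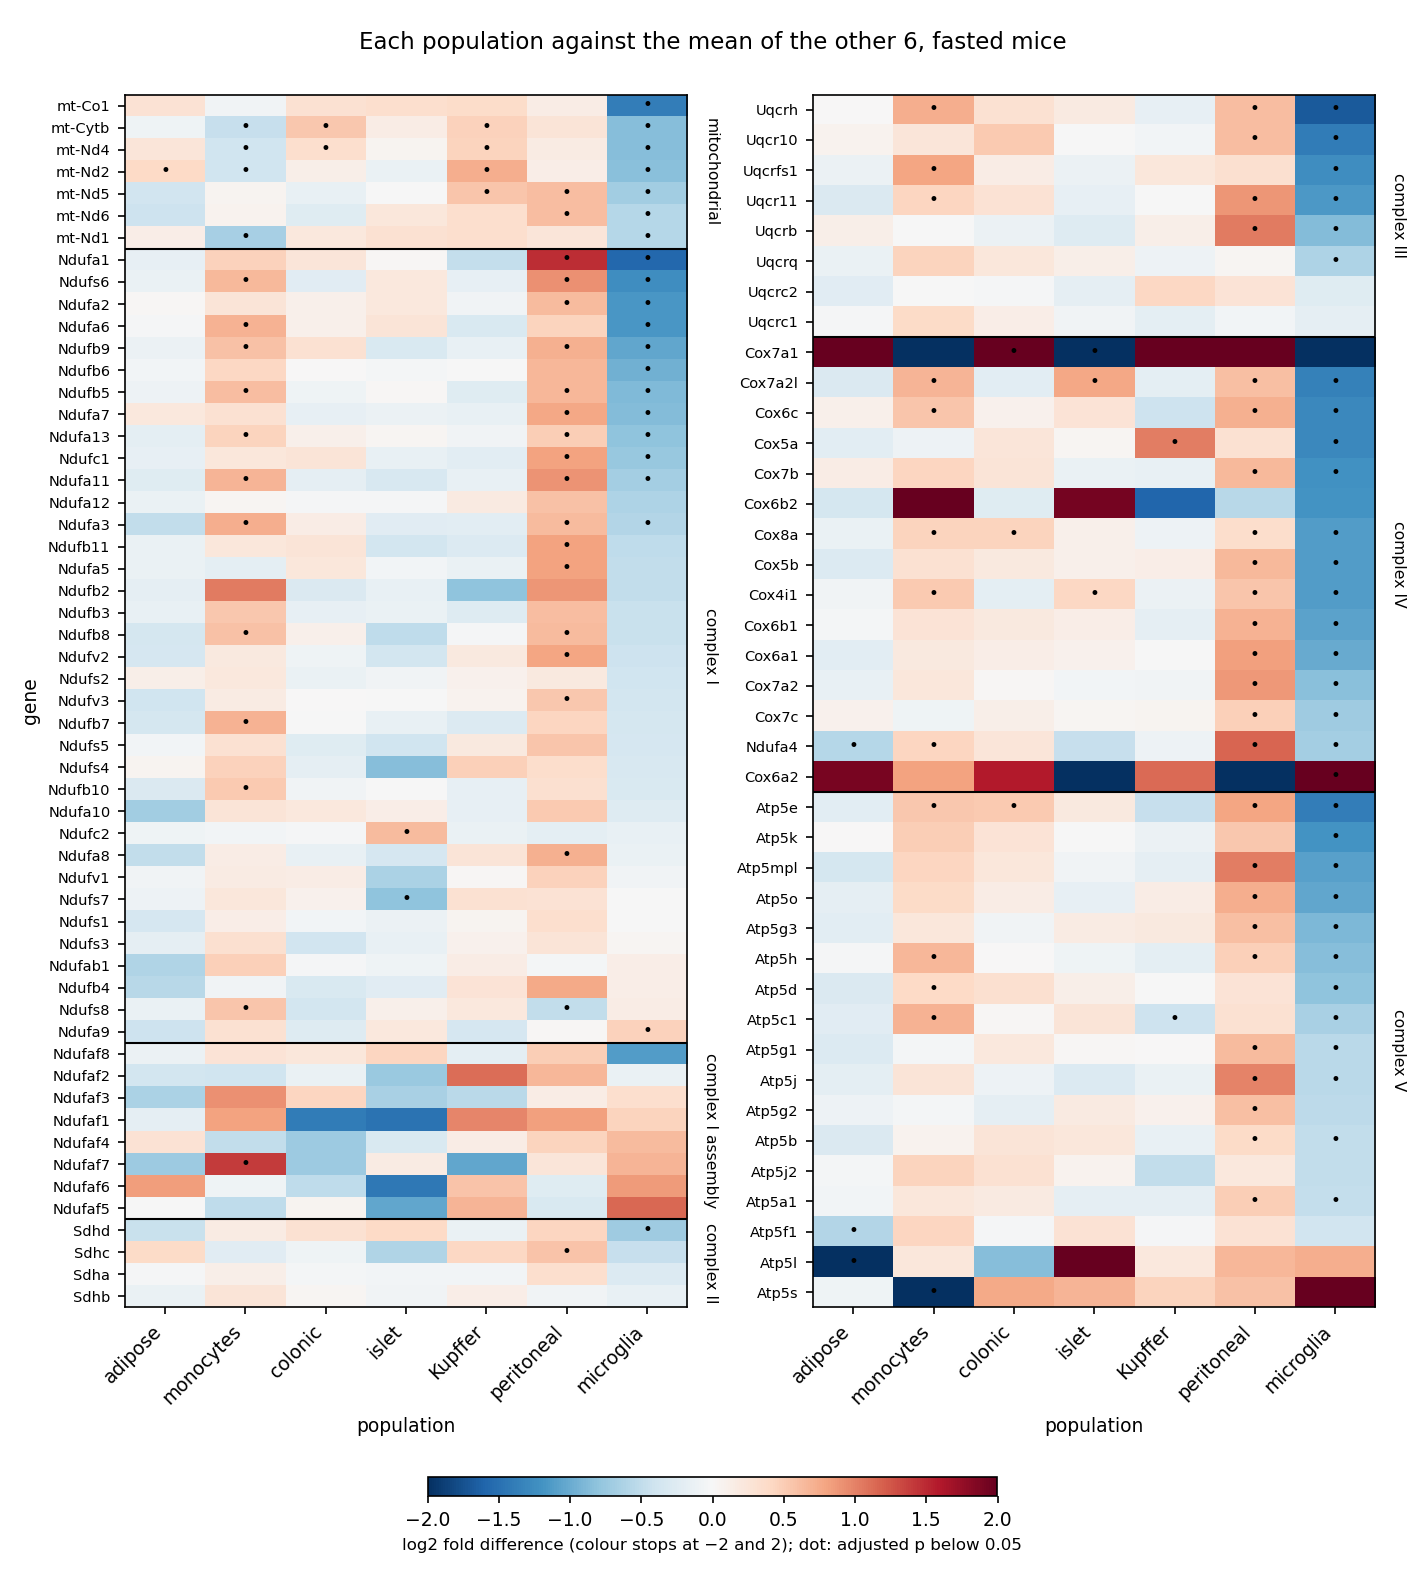
Log2 difference of each fasted population from the mean of the other 6 (colour, ending at -2 and 2) for the 95 members tested, in rows grouped by genome and complex; a dot marks an adjusted p below 0.05 by edgeR. The microglia column is blue in 81 of 95 rows with 50 dots on lower genes, and the peritoneal column is red in 86 rows with 44 dots on higher genes.

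For most complex IV subunits with alternative genes, 1 form made up nearly all of the signal in the 7 populations, with levels here per exon length (CPM per kb, mean over fasted libraries). Cox4i1 ran from 92.1 ± 22.02 (SD, n = 8) in microglia to 247.6 ± 25.9 (n = 8) in peritoneal macrophages, while Cox4i2, the form known from lung and low oxygen, was at most 0.561. Cox6a1 ran from 100 to 290 and Cox6a2 reached 10.1 ± 9.13 (n = 8), in microglia. Cox6b1 ran from 110 to 311, and Cox6b2, known from testis, reached 7.15 ± 4.35 in monocytes (n = 8) and 5.86 ± 4.28 in islet macrophages (n = 6). Cox8b was at most 0.109, and Cox8c and Cox7b2 were at 0 in all fasted libraries. Ndufa4 ran from 37.9 ± 10.4 in microglia to 111.4 ± 8.06 in peritoneal macrophages, and Ndufa4l2 was at most 0.278.

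The complex IV subunit 7A was the exception, with 2 genes of high level: Cox7a2 ran from 42.04 to 112.9 and Cox7a2l from 40.02 ± 17.2 in microglia to 143.5 ± 23.7 in islet macrophages (n = 6). Of the genes for subunit c of ATP synthase, which encode the same mature ring protein, Atp5g3 (14.8 to 35.8) had a higher mean per kb than Atp5g1 (8.38 to 16.9) and Atp5g2 (9.65 to 18.8) in each of the 7 populations. For Atp5g1 this order depends on the division by exon length. Without it, the average log2 CPM of the fasted libraries was 5.81 for Atp5g3, 5.88 for Atp5g1 and 4.50 for Atp5g2. In complex II the flavoprotein Sdha ran from 51.5 to 74.6, the iron-sulfur protein Sdhb from 58.2 to 74.03, and the anchors Sdhc from 15.8 to 31.01 and Sdhd from 47.3 to 90.8. On the same scale mt-Co1 was far more abundant than these nuclear genes, with 976.5 ± 224 in microglia and 2805 ± 570 in islet macrophages. mt-Nd6, the gene on the other strand, was at 125.5 ± 32.2 and 201.9 ± 33.4, within the ranges of Cox6a1 and Cox6b1.

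**Figure D3:**
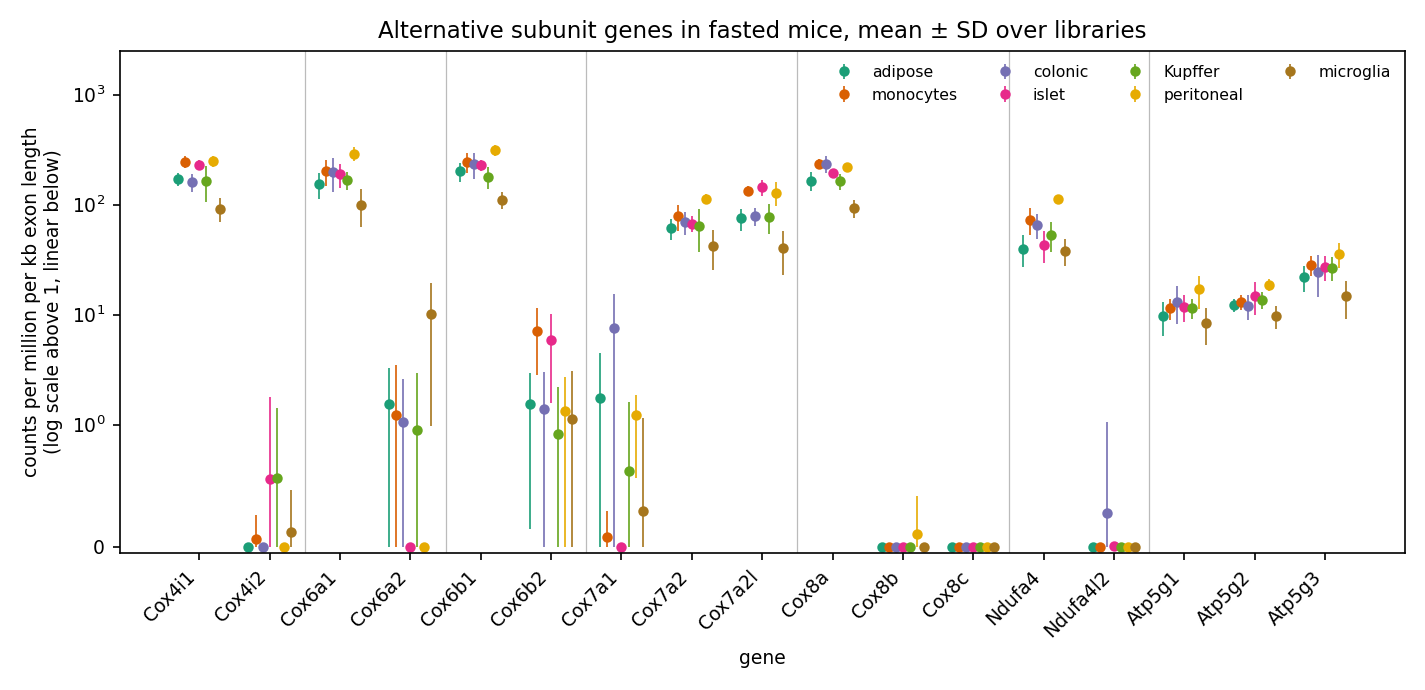
Levels in CPM per kb of exon (log scale above 1, linear below) of members with alternative genes in 7 fasted populations; a point is the mean over libraries and a line its SD. Cox4i1, Cox6a1, Cox6b1 and Cox8a lie near 100 or above in all populations and their alternative forms at or below 10.1, while Cox7a2 and Cox7a2l lie side by side.

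The order of microglia, islet and peritoneal macrophages was tested again in the normal-diet libraries of the second experiment, which share no library with the fasted ones. Microglia against peritoneal macrophages gave 62 of 95 members in fasted mice (24.9% of all genes) and 71 of 95 on normal diet (28.2%). All 71 were lower in microglia, as were 60 of the 62. Both experiments shared 60 members with the same direction, 96.77% of the fasted and 84.51% of the normal-diet list. The same overlap over all genes was not counted, here or for the islet comparisons below. It is thus not shown that members repeated better than other genes. The medians were -0.997 (nuclear) and -0.95 (mitochondrial) in fasted mice and -1.76 and -1.55 on normal diet. Ndufa1 differed by -2.62 ± 0.29 (edgeR, adjusted p = 3.9e-10) and -3.17 ± 0.34 (9.7e-06): its normal-diet levels were 18.4, 21.9, 20.7 and 28.5 CPM in microglia and 140.4, 200.9, 356.5, 174.2 and 153.1 CPM in peritoneal macrophages, with no overlap. For mt-Co1 the differences were -1.32 and -2.02, with normal-diet levels of 1282, 1348, 1450 and 1970 CPM in microglia and 5902, 5802, 10128, 4937 and 4516 CPM in peritoneal macrophages.

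By the medians over members, islet macrophages lay between these 2 populations. This did not hold for each gene: fasted levels of mt-Co1 and Cox7a2l, given above, were higher in islet than in peritoneal macrophages. Against peritoneal macrophages 23 members passed in fasted mice (20.3% of all genes) and 37 on normal diet (27.4%), with 21 shared in the same direction (91.3% and 56.76%). The nuclear medians were -0.49 and -0.92 and the mitochondrial medians -0.10 and -0.53. Ndufa4 differed by -1.39 ± 0.24 and -1.67 ± 0.33. Without the filter on low counts the 23 became 1, and with limma and quality weights the 37 became 17. Against microglia 40 passed in fasted mice (21.5%) and 39 on normal diet (27.3%), with 29 shared in the same direction (72.5% and 74.36%), nuclear medians of 0.50 and 0.81 and mitochondrial medians of 0.74 and 0.88. Without the filter the 40 became 17, with the replicate number as a block it became 25, and leaving out 1 normal-diet library at a time gave 21 to 52 in place of the 39. In the fasted libraries mt-Co1 was higher in islet macrophages than in microglia by 1.48 ± 0.19, Uqcrh by 1.58 ± 0.20 and Cox7a2l by 1.82 ± 0.23. By limma with quality weights mt-Co1 had an adjusted p of 0.16 there. On normal diet the populations also differ in the number of starting cells (400, 5000 and 100000), so population and cell number cannot be told apart there; in the fasted libraries this number was the same.

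Other genes around the 5 complexes are read here beside the 27.7% of all genes that differed in microglia. Of 43 other subunits and assembly factors, 6 passed in microglia (2 higher, 4 lower) and at most 1 in each other population. The lower ones included Cycs, cytochrome c itself (-0.92 ± 0.23), and Cox14 (-0.75 ± 0.20). Of 33 genes for the expression of mitochondrial DNA, 3 were higher in microglia, where mitochondrial transcripts were lower: Ssbp1, which binds single-stranded mitochondrial DNA (1.60 ± 0.20), Gfm2, a translation factor (3.31 ± 0.39), and Fastk (0.95 ± 0.34). Of 77 mitochondrial ribosomal protein genes, 7 passed in microglia (1 higher, 6 lower, median -0.10) and 10 in peritoneal macrophages, all higher.

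Among 13 carriers and uncoupling proteins, 7 passed in microglia (3 higher, 4 lower), a larger share than the 27.7% of all genes. Ucp2, an inner membrane carrier, was lower by -1.78 ± 0.14 in microglia (edgeR, adjusted p = 1.8e-14). It was higher by 1.01 ± 0.13 in islet macrophages, 0.55 ± 0.12 in monocytes and 0.39 ± 0.12 in peritoneal macrophages. The phosphate carrier Slc25a3 was lower by -0.88 ± 0.16 in microglia. Of 19 genes of the citric acid cycle, 3 were lower in microglia, among them citrate synthase (Cs, -1.03 ± 0.24), and 2 were higher in colonic macrophages, with Mdh2 at 1.46 ± 0.15. Cs was higher in monocytes (0.63 ± 0.20). Idh2 was higher in adipose macrophages (0.66 ± 0.16) and lower in monocytes (-0.55 ± 0.17) and islet macrophages (-0.71 ± 0.20). Fh1 was higher in adipose (1.39 ± 0.36), Pdha1 higher in peritoneal (0.95 ± 0.30) and Dld lower in islet macrophages (-1.06 ± 0.27). Of 16 regulators, at most 3 passed in a population. Nfe2l2 was lower in peritoneal macrophages (-1.76 ± 0.18) and monocytes (-1.22 ± 0.17) and higher in islet (1.76 ± 0.16) and colonic macrophages (1.35 ± 0.14). Myc was lower in monocytes (-2.46 ± 0.29) and higher in peritoneal macrophages (0.67 ± 0.22). Hif1a was lower in Kupffer cells (-0.70 ± 0.19) and peritoneal macrophages (-0.64 ± 0.16) and higher in colonic macrophages (0.94 ± 0.15). Pparg was higher in islet macrophages, Kupffer cells and adipose macrophages (edgeR, adjusted p = 0.00020, 0.00018 and 0.00035). Its sizes are not given, because its difference in peritoneal macrophages had an SE of 22.6. Of 13 genes of ubiquinone synthesis, Coq10b was lower in microglia (-0.98 ± 0.31), monocytes (-0.99 ± 0.31) and peritoneal macrophages (-1.84 ± 0.34) and higher in colonic (1.94 ± 0.25) and islet macrophages (1.74 ± 0.28), and Coq9 was lower in islet macrophages (-1.84 ± 0.56). These comparisons share libraries, and no list was tested as a whole.

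Refeeding for 2 h changed 0 members in 7 populations by edgeR. Of all genes 0.432% passed in peritoneal macrophages and 0.0% in each of the other 6, so the members were like the rest of the genes in this count. At an unadjusted p below 0.05 there were 4 of 95 members in adipose macrophages (5.16% of all genes), 1 of 92 in monocytes (2.65%), 0 of 93 in microglia (2.59%), 2 of 94 in colonic (2.59%) and 3 of 93 in islet macrophages (2.42%), 1 of 92 in Kupffer cells (3.27%) and 6 of 93 in peritoneal macrophages (11%). DESeq2 and limma with quality weights also passed 0 members in all 7. The smallest p in adipose macrophages was that of Cox6a1 (0.39 ± 0.14, edgeR adjusted p = 0.793), whose levels were 77.8, 104.2 and 149.5 CPM in fasted and 108.5, 151.2 and 180.5 CPM in refed libraries, with overlap.

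The nuclear medians of the refeeding effect were 0.13 in adipose and 0.17 in colonic macrophages and between -0.01 and 0.01 in the other 5 populations. The 7 mitochondrial genes were all below 0 in islet (median -0.31) and peritoneal macrophages (-0.22), monocytes (-0.16) and Kupffer cells (-0.11), and none of them passed. In peritoneal macrophages mt-Nd5 gave -0.28 ± 0.11 (edgeR adjusted p = 0.300), with 1128, 1354 and 1488 CPM in fasted and 786.3, 1122 and 1473 CPM in refed libraries, and mt-Cytb gave -0.25 ± 0.11 (adjusted p = 0.384). Cytosolic ribosomal protein genes had a median of -0.20 in the same comparison, and 77 of 78 were below 0. In islet macrophages mt-Nd5 gave -0.31 ± 0.11 (edgeR adjusted p = 1.0), with 674.8, 990.8 and 1291 CPM fasted and 553.1, 870.5 and 1020 CPM refed. The titles of 4 refed libraries (islet 1_2 and 3, Kupffer 1 and 2) say refed while their descriptions name fasting alone, and without those of islet macrophages the islet mitochondrial median was -0.16.

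In colonic macrophages the member with the smallest p for refeeding was Uqcrb, a nuclear gene of complex III (0.53 ± 0.21, edgeR adjusted p = 1.0). Colonic macrophages were the one population with all 7 mitochondrial genes above 0 after refeeding (median 0.28). This rests on refed replicates 7 and 8, whose mitochondrial sums were 3.14% and 2.55% and nuclear sums 1.36% each, against at most 1.21% and 0.686% in the other 7 refed libraries. The same 2 libraries had the highest sums of 8 epithelial markers, 3319 and 3955 CPM, against at most 1586 CPM in the other colonic libraries. Without them the mitochondrial median was -0.10. The part of epithelial RNA in their sums was not tested.

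**Figure D4:**
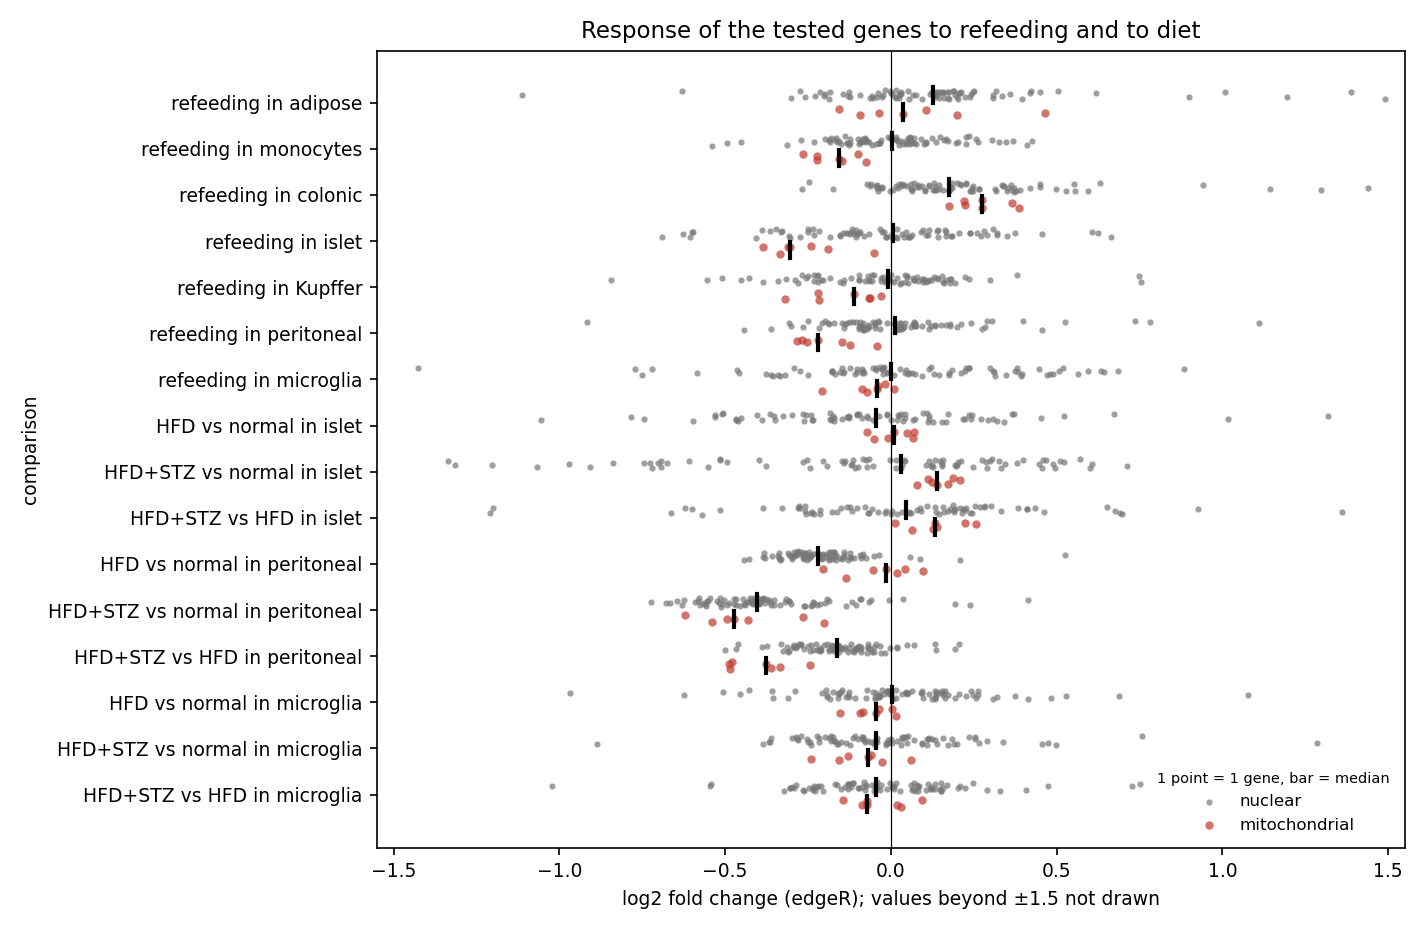
Log2 fold change of the tested members (1 point per gene, nuclear grey and mitochondrial red, bars at the medians) for refeeding in 7 populations and for the diet comparisons in 3 (HFD, high-fat diet); the axis ends at -1.5 and 1.5, and 0 to 8 nuclear points per comparison lie outside it. No point passed an adjusted p of 0.05 by edgeR, and the nuclear and mitochondrial points lie furthest left for STZ against normal diet in peritoneal macrophages (medians -0.40 and -0.47).

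The diets and STZ changed 0 members in 9 comparisons by edgeR, 3 in each of 3 populations; the comparisons within a population share libraries. Of all genes 1.29% passed for STZ against normal diet in peritoneal macrophages (0.628% lower) and 0.0% in the other 8. In microglia the nuclear and mitochondrial medians were 0.00 and -0.05 for high-fat against normal diet, -0.04 and -0.07 for STZ against normal diet and -0.04 and -0.07 for STZ against high-fat diet. At an unadjusted p below 0.05 there were 0, 0 and 1 members (3.16%, 2.15% and 4.77% of all genes), the last being Uqcrc1, a core protein of complex III (-0.54 ± 0.22, edgeR adjusted p = 1.0). In islet macrophages the medians were -0.05 and 0.01, 0.03 and 0.14, and 0.04 and 0.13, with 1, 1 and 0 members at an unadjusted p below 0.05 (2.42%, 5.66% and 4.99%). The first was Ndufa10 of complex I, at 98.6, 82.5, 97.4 and 111.2 CPM on normal and 63.3, 71.1, 44.9 and 60.9 CPM on high-fat diet (-0.74 ± 0.31, edgeR adjusted p = 1.0). The second was Uqcrh, at 83.7, 110.7, 113.95 and 128.3 CPM on normal diet and 76.05, 70.1 and 39.7 CPM with STZ (-0.97 ± 0.34, edgeR adjusted p = 0.826). Both genes were picked by their small p, so the lack of overlap between those groups adds nothing to it. Neither passed the adjusted threshold.

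In peritoneal macrophages STZ against normal diet had the most members at an unadjusted p below 0.05, 32 of 93 against 19.6% of all genes, while 0 passed after adjustment by edgeR. The count after adjustment was 4 by DESeq2, 2 without the filter on low counts and 0 by limma with quality weights. The nuclear median was -0.40, with 82 of 86 below 0, and the mitochondrial median -0.47, with 7 of 7 below 0, beside -0.01 over all genes. By complex the medians were -0.46 for complex IV, -0.41 for complex I, -0.39 for complex III, -0.37 for complex V and -0.17 for complex II. Ndufa1 had the smallest p (-0.72 ± 0.21, edgeR adjusted p = 0.102, and 0.0195 by DESeq2). In replicates 1 to 5 its levels were 140.4, 200.9, 356.5, 174.2 and 153.1 CPM on normal diet and 110.96, 133.2, 102.9, 151.8 and 96.6 CPM with STZ, and on high-fat diet, replicates 1, 2, 4 and 5, they were 130.5, 162.5, 193.8 and 147.5 CPM. It was lower with STZ in all 5 cohorts, although the groups overlapped in part.

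Atp5s and mt-Nd6 followed in the order of p, by which they were picked. Atp5s was at 12.8, 9.25, 10.8, 10.98 and 11.96 CPM on normal diet and 7.51, 6.19, 7.12, 8.74 and 6.50 CPM with STZ, without overlap (-0.64 ± 0.19, edgeR adjusted p = 0.103). mt-Nd6 was at 168.2, 193.4, 217.2, 172.2 and 160.6 CPM on normal diet and 171.7, 127.0, 110.5, 139.7 and 95.1 CPM with STZ (-0.54 ± 0.16, edgeR adjusted p = 0.111). In cohort 1 mt-Nd6 was higher with STZ, and in the other 4 cohorts lower. mt-Nd2 (-0.62 ± 0.23), mt-Cytb (-0.49 ± 0.22), mt-Nd1 (-0.47 ± 0.22), mt-Nd4 (-0.43 ± 0.18), mt-Nd5 (-0.26 ± 0.18) and mt-Co1 (-0.20 ± 0.20) lay below 0 without passing. Against high-fat diet, STZ gave medians of -0.16 and -0.38, and high-fat against normal diet -0.22 and -0.02. With 1 library left out at a time, these nuclear medians ran from -0.29 to -0.04 and from -0.35 to -0.09, and the mitochondrial medians from -0.51 to -0.32 and from -0.20 to 0.12. At an unadjusted p below 0.05 there were 2 and 0 members (8.08% and 3.54% of all genes).

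Cohort 3 set much of the size of this difference. Its normal-diet library had the highest nuclear sum of the experiment's peritoneal libraries, 1.42%, against 0.972%, 1.05%, 0.961% and 0.887% in replicates 1, 2, 4 and 5. The STZ sums of replicates 1 to 5 were 0.854%, 0.830%, 0.946%, 1.13% and 0.985%, so that the nuclear sum was lower with STZ in cohorts 1, 2 and 3 and higher in cohorts 4 and 5. The mitochondrial sums were 1.67%, 1.52%, 2.05%, 1.33% and 1.27% on normal diet and 2.07%, 1.38%, 1.32%, 1.16% and 1.04% with STZ, lower in 4 of 5 cohorts. Without cohort 3 the nuclear median was -0.16 and the mitochondrial median -0.23, and Ndufa1 alone passed (-0.45, edgeR adjusted p = 0.0449). The same normal-diet library held the highest share of cytosolic ribosomal protein genes, 3.22%. Those genes had a median of -0.58 for STZ against normal diet over all cohorts, with 78 of 78 below 0, and the part of whatever sets this library apart was not tested.

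**Figure D5:**
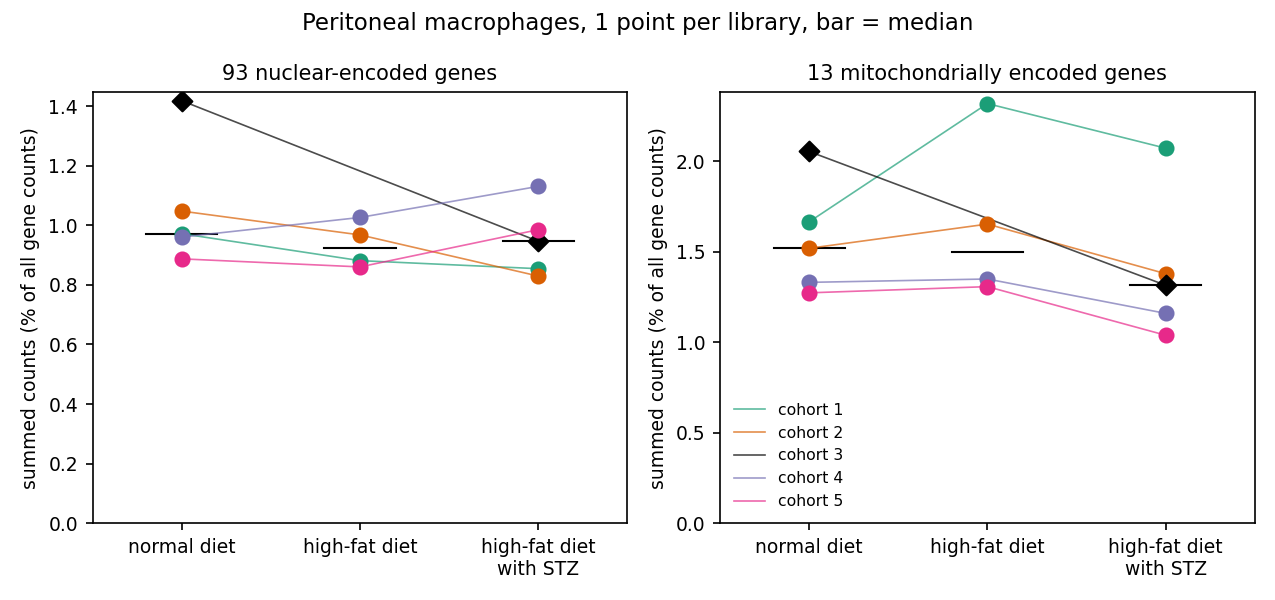
Summed counts in % of all gene counts of a library of the 93 nuclear (left) and 13 mitochondrial genes (right) in 14 peritoneal libraries by diet; a point is 1 library, a line joins the libraries of a cohort, a bar is the group median and black diamonds mark cohort 3. The normal-diet library of cohort 3 stands highest on the left at 1.42%, and on the right 4 of 5 lines end lower with STZ than on normal diet.

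Whether a treatment acted differently in different populations was tested directly. By edgeR 0 of 96 members passed for refeeding across 7 populations (0.0268% of all genes; 2 members at an unadjusted p below 0.05, smallest adjusted p = 0.552), 0 for high-fat diet across 3 (0.308%; 1 member, 0.564) and 0 for STZ (0.708%; 1 member, 0.444). The last were Uqcr11 for high-fat diet and Ndufaf1 for STZ. A difference between populations in the effect of STZ on a member was thus not shown.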

How the data were processed

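The authors deposited unnormalized counts by gene in 1 table for each experiment, with a column per library. Per the submitters' processing notes, the authors used Trimmomatic 0.36, STAR 2.5.1a, featureCounts and mm10, and per the labels' protocols sorted cells gave PicoPure RNA, treated with DNase, for polyA libraries by Smart-seq2. For the annotation release, strand and multi-mapped reads, the settings were not given in the sources used here. Of 50686 identifiers, 50462 could be matched to GENCODE M21 symbols (GRCm38) without the version and 45737 with it, and unmatched ones held 0.00721% of counts. 11 pseudogenes with a matching symbol were left out.

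Counts were fitted with edgeR 4.0.16 in R 4.3.3 (filterByExpr with a minimum count of 10, TMM scaling, robust quasi-likelihood F test), with Benjamini-Hochberg adjustment over all tested genes and calls below 0.05. A standard error is the size of the log2 fold change divided by the square root of F. Levels are CPM on scaled library sizes, except in the comparisons by exon length, which use unscaled CPM, and sums are % of all gene counts. Refeeding fits had cohort as a term. Islet and peritoneal diet fits had the replicate number, which is the cohort, as a block, and microglia diet fits had cohort. One STZ library of microglia is alone in its cohort and adds nothing there. Same-numbered libraries had a mean residual correlation of 0.142 in 13 peritoneal pairs (9 above 0.1), 0.053 in 10 islet pairs and between -0.003 and 0.068 in the refeeding fits, and 0.001 in 134 pairs of fasted libraries of different populations (0 above 0.1). The labels do not say that libraries come from separate animals, so p values measure the spread between libraries, which may be partly technical, and islet libraries named 1_2 and 5_6 carry 2 numbers. Among 443 pairs of libraries of a group, 0 held identical counts.

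Alternatives were DESeq2 1.42.0, limma 3.58.1 (voom with quality weights), RLE scaling, library sizes without mitochondrial genes, no filter, other blocking terms and single libraries left out. Leaving out libraries that stand apart was chosen after seeing the data. The fits were tested on simulated counts with 200 changed genes. In each comparison the genes named are the members past the adjusted p (the 25 of largest change where more pass, the 3 of smallest p where none does), the mitochondrial genes and the isoform groups. The members and lists were chosen with earlier results of these data known.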

Additional observations from a re-analysis of the deposited data

Results flagged for a closer look

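Among 66 checks of summed shares in groups of 4 or more libraries, 7 libraries lay far from the rest of their group, by a test whose 95% limit lets chance mark about 1 group in 20. They were a fasted Kupffer library (replicate 8) with a nuclear sum of 0.839%, a refed Kupffer library (replicate 8) with a mitochondrial to nuclear ratio of 3.34, and a fasted colonic library (replicate 4) with a ratio of 2.32. The others were a refed islet library (replicate 1_2) with a mitochondrial sum of 0.546%, a fasted microglia library (replicate 1) with 0.859%, a fasted monocyte library (replicate 8) with 1.19%, and a normal-diet peritoneal library (replicate 1) with a ratio of 1.71. The refed islet library is one of those whose description names fasting alone.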

How the results depend on the processing

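No difference past the threshold changed direction in any alternative run. The count of members past the threshold moved by more than 1.5 times mainly without the filter on low counts: in fasted mice from 4 to 1 in adipose (a different gene, mt-Co1), 5 to 2 in islet (mt-Co1 among them), 29 to 8 in monocytes, 45 to 11 in peritoneal macrophages, 62 to 37 for microglia against peritoneal, 23 to 1 for islet against peritoneal, 40 to 17 for islet against microglia and 63 to 33 for the test over all populations. With limma and quality weights monocytes gave 44, and islet against peritoneal on normal diet gave 17 (37 with edgeR), with a nuclear median of -0.67 (-0.92), as without the libraries that stand apart (-0.67). Without fasted colonic replicates 3 and 5 the colonic count was 3. The cause of these changes was not tested. For STZ against normal diet in peritoneal macrophages the count was 2 without the filter, 4 by DESeq2 and 1 without cohort 3, and the nuclear median was -0.17 with quality weights and -0.16 without cohort 3. Leaving out 1 library at a time gave counts of 0 to 1, nuclear medians of -0.53 to -0.15 and mitochondrial medians of -0.64 to -0.23 there, the extremes near 0 without replicate 3 of either group. For normal diet it gave 21 to 52 members for islet against microglia, nuclear medians of -1.03 to -0.66 for islet against peritoneal, and nuclear medians of -1.90 to -1.52 and mitochondrial medians of -1.67 to -1.23 for microglia against peritoneal. The colonic refeeding mitochondrial median was -0.10 without refed replicates 7 and 8. With the replicate block, the fasted counts were 2 for islet macrophages (5 without) and 25 for islet against microglia (40), where islet libraries 1_2 and 5_6 add nothing since they share no number, and 63 for the test over all populations. This block was chosen after seeing the data. With the replicate block, refeeding gave 0 members in all 7 populations (colonic mitochondrial median 0.34). Without the block, STZ against normal diet in peritoneal macrophages gave 0 members, with a nuclear median of -0.48. Of the genes named in population comparisons, 143 values over all alternatives lost the threshold and 18 did so when 1 library was left out. The 6 mitochondrial genes with 0 to 35 counts in all libraries could not be compared at any depth here.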
